A study of Rattus norvegicus with 45 samples.

Results

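Triadimefon and myclobutanil were compared in rat liver after 14 days of dosing, on 10 arrays chosen by their titles alone, 5 for each compound, out of 45 in the series. The animals were adult male Sprague-Dawley rats of 10 weeks, dosed by gavage, and liver RNA was hybridised to Affymetrix Rat Genome 230 2.0 arrays. By the series text the triadimefon group received 175 mg/kg/day and the myclobutanil group 225 mg/kg/day, and no genetic change or other agent is named. The 5 control arrays of 14 days are given beside both groups, and their vehicle is not given in the sources used here. The doses differ, so each difference below is one between these 2 dosed groups and not between equal doses. The labels disagree on numbers: the series text gives 15 livers, the labelling protocol 3 rats per group, and the titles 5 arrays in each of 9 groups. The titles were followed, no 2 arrays hold identical values, and the p-values measure the spread between arrays, which would be partly technical if animals were shared. Albumin, the main secreted protein of hepatocytes, scored between 4.55 and 5.61 on the 15 arrays of 14 days and was the highest score on each.

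Both compounds are triazole fungicides, whose ring nitrogen binds the haem iron of cytochrome P450 enzymes and so blocks the sterol demethylase that fungi need to build their membranes. Triadimefon carries a ketone, a tert-butyl group and a chlorophenoxy group, and myclobutanil carries a nitrile, a butyl chain and a chlorophenyl group. In liver, compounds of this class are known to switch on drug-metabolising genes through the nuclear receptors CAR and PXR. Beside drug handling the liver runs programs that such a treatment could part: sterol export into bile by ABCG5 and ABCG8, metal binding by metallothioneins, a circadian clock that sets the daily rhythm of many metabolic genes, and storage of fat in droplets.

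After 14 days the compounds differed in a small set of genes, led by the metallothioneins Mt2A and Mt1, the sterol exporters Abcg5 and Abcg8 and the clock repressors Nr1d1 and Nr1d2, all higher with triadimefon. The clock repressor Cry1, the apolipoprotein Apoa4, the lipid droplet coat gene Plin2 and the fructose pathway kinase Tkfc were lower with triadimefon. Of drug-handling genes, the carboxylesterase Ces2c, raised by both compounds, and the drug pump Abcb1a, raised by triadimefon, were higher with triadimefon, and the measured drug-metabolising P450 genes did not pass between the compounds. All values are the deposited expression scores, whose logarithm base is not stated: 1 score unit is 2-fold if the base is 2, and 2.72-fold for the natural logarithm. Differences below are in these units.

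Each gene was read from the brightest of its own probe sets and tested with limma on all 45 arrays, with Benjamini-Hochberg adjustment over 31042 probe sets and a threshold of 0.05. Of 14217 genes, 57 (0.401%) passed between the compounds at 14 days, 29 higher (0.204%) and 28 lower (0.197%) with triadimefon. Counted as probe sets, 103 passed (0.332%), 51 higher and 52 lower. At an unadjusted p under 0.05 there were 3849 of the 31042 probe sets, the background for the unadjusted counts given below. Against the controls of 14 days 8.22% of genes passed with triadimefon and 1.19% with myclobutanil. After quantile normalization, which gives all arrays the same distribution, 85 genes were higher and 75 lower (1.13% in all), and 56 of the 57 genes still passed. With every array moved to the same median the probe sets split into 72 higher and 44 lower. Few were large: differences of at least 0.5 units numbered 12 among the 103 probe sets that passed as deposited, 3 exceeded 1 unit, and their median size was 0.221. For 45 of the 57 genes the 5 scores of one compound lay wholly above the 5 of the other, against 392 of all 14217 genes (2.76%).

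1 array weighed heavily on the count, since 12 genes passed without triadimefon replicate 4, and 59 without myclobutanil replicate 5. Without triadimefon replicate 5 the count was 31, and without myclobutanil replicates 2, 3 or 4 it was 32, 37 and 23. Among the named genes, those that passed in all 10 repeats with 1 array left out were Abcg5, Abcg8, Nr1d1, Nr1d2, Cry1, Ces2c, Sdr42e1, Sbspon, Ppard, Hsd11b2 and the uncharacterised LOC102554026. The spread was estimated over all 45 arrays, and with the 15 arrays of 14 days alone 14 genes passed, or 7 with the 10 compared arrays alone. Of the 33 named genes that passed, 10 kept their call with the arrays of 14 days alone: Mt2A, Mt1, Nr1d2, Cry1, Ces2c, Sdr42e1, Ppard, Pla2g12a, Acot12 and LOC102554026. The others lost it there. The bright end of the scale differed between arrays: the 99th percentile was 3.34 on myclobutanil replicate 2 and 3.41 on replicate 4, and at most 3.15 on the other arrays of 14 days. Differences of genes with high scores lean below 0 as deposited, and the value after quantile normalization is given where it matters.

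**Figure D1:**
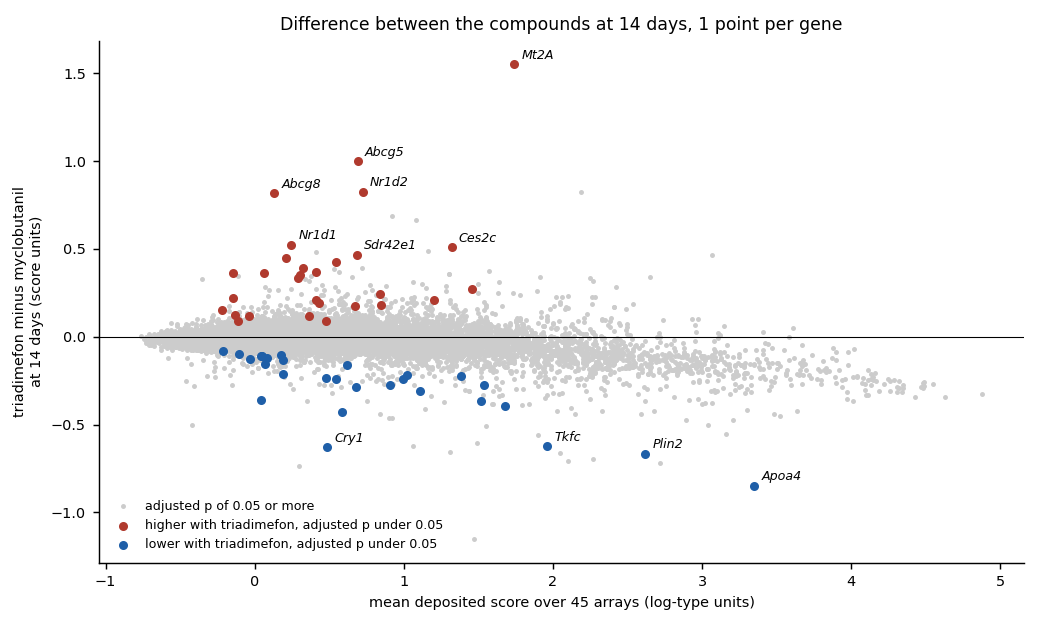
Difference between the compounds at 14 days (triadimefon minus myclobutanil, score units, y axis) against the mean deposited score over 45 arrays (x axis), 1 point for each of 14217 genes, with the 29 higher and 28 lower genes coloured and those of large difference labelled. Mt2A lies highest at 1.55 units, Apoa4 is the lowest gene that passed at -0.848, and the grey cloud bends below 0 at high mean scores.

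Abcg5 and Abcg8 encode the partners of a single transporter that pumps plant sterols and cholesterol out of hepatocytes into bile. They lie head to head on chromosome 6, and 205 bases separate their start sites in the RefSeq annotation of the rat assembly GRCr8. That interval, chr6:15717731-15717935 on the plus strand, is shown because the pair moved together; it is read 5′ to 3′ from the start of Abcg8, on the minus strand, to the start of Abcg5, with capitals marking the GATA box AGATAA searched on both strands.
Abcg8-Abcg5: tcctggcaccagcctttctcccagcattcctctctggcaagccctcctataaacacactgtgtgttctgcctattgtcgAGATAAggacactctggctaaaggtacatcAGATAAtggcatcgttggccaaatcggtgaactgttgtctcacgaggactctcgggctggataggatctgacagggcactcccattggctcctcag
The box is present 2 times, and 0.604% of 33469 RefSeq promoter windows of the same length hold it 2 or more times (8.35% at least once). The nuclear receptor element AGGTCA has 0 matches here on either strand, against 11.7% of windows with a match. These matches describe letters and are no evidence of binding.

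Abcg5 scored 1.10, 1.15, 0.96, 1.88 and 0.65 with triadimefon (replicates 1 to 5), -0.06, 0.12, 0.13, 0.02 and 0.51 with myclobutanil, and 0.66, 0.15, -0.10, 0.34 and 0.38 in controls. All triadimefon scores lay above all myclobutanil scores, with replicate 4 the highest. The difference was 1.0 ± 0.16 (SE, n = 5 and 5, limma adjusted p = 0.00082). Against control Abcg5 rose by 0.862 with triadimefon (limma adjusted p = 0.00078), and it was -0.141 with myclobutanil, which did not pass (0.75).

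Abcg8 scored 0.53, 0.66, 0.47, 1.27 and 0.07 with triadimefon, -0.35, -0.24, -0.22, -0.34 and 0.07 with myclobutanil, and 0.20, -0.11, -0.30, -0.01 and -0.05 in controls. Replicate 5 of both compounds met at almost the same score, and the other triadimefon scores were clear of the myclobutanil scores. The difference was 0.816 ± 0.138 (limma adjusted p = 0.0019). Both genes kept their call in all 10 repeats with 1 array left out (adjusted p up to 0.0068 and 0.012) but missed it when only the 15 arrays of 14 days were fitted (0.06 and 0.076). They were the 2 of 28 measured genes of sterol synthesis, uptake and transport that passed between the compounds, and the list's median difference was 0.0224, against -0.0145 over all genes. Cyp51, the mammalian counterpart of the fungal target enzyme, differed by -0.0625 (95% interval -0.27 to 0.145, limma adjusted p = 0.84), or 0.0789 after quantile normalization. Sqle, an early enzyme of sterol synthesis, differed by 0.167 (-0.047 to 0.381), and Insig1, which holds sterol synthesis back, by -0.424 (-0.783 to -0.0641, adjusted p = 0.33).

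**Figure D2:**
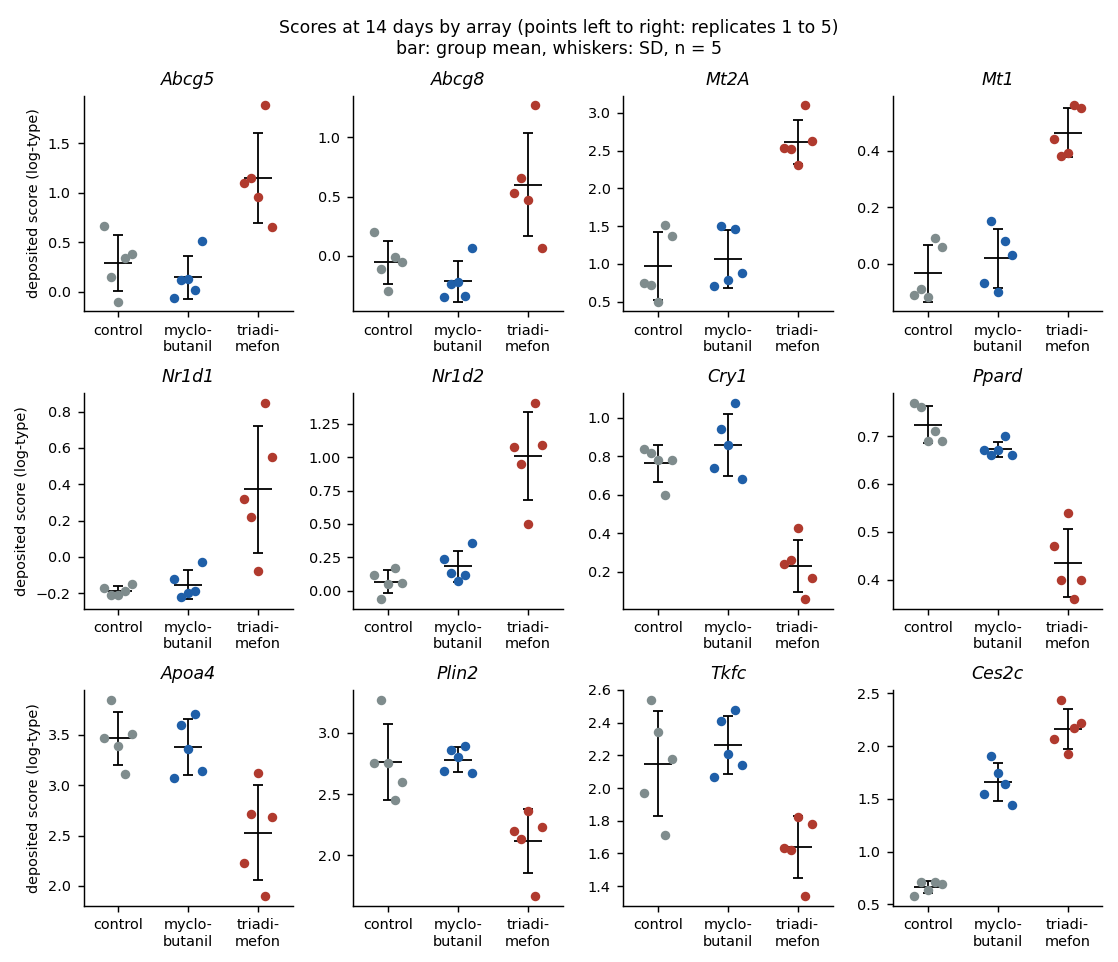
Deposited scores (y axes, log-type units) of 12 genes on the 15 arrays of 14 days, by group (x axes); points run from replicate 1 to 5, bars are group means and whiskers SDs (n = 5). For Mt2A the triadimefon arrays lie between 2.31 and 3.10 and the myclobutanil arrays between 0.70 and 1.5, while the Nr1d1 score of triadimefon replicate 3 (-0.08) falls below the highest myclobutanil score (-0.03).

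Metallothioneins are small cysteine-rich proteins that bind zinc and copper, and their genes are switched on by metals and by glucocorticoids. The windows of 250 bases before the RefSeq starts of both genes on chromosome 19 of GRCr8 are shown because the genes moved together: Mt2A at chr19:10838709-10838958 and Mt1 at chr19:10832976-10833225, both on the minus strand and read 5′ to 3′. Capitals mark the core letters of the metal response element, TGCACNC or TGCGCNC, on either strand.
Mt2A: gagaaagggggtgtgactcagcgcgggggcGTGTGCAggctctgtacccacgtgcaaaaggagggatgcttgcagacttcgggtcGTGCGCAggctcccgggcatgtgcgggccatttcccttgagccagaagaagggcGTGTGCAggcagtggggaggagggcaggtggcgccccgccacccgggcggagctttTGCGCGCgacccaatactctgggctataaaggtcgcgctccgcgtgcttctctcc
Mt1: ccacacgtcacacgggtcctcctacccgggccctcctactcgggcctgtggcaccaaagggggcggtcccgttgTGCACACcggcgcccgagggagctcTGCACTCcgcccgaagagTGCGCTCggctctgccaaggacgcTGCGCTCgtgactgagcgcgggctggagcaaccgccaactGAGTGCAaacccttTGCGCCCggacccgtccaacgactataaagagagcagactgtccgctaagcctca
Mt2A holds 4 matches and Mt1 6, counts reached by 0.266% and 0.0269% of the 33469 promoter windows of this length, of which 20.6% hold at least 1 match. A match is a run of letters and not a measured site.

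Mt2A scored 2.53, 2.52, 2.31, 3.10 and 2.63 with triadimefon, 0.70, 1.5, 0.79, 1.46 and 0.88 with myclobutanil, and 0.75, 0.72, 0.50, 1.52 and 1.37 in controls. The triadimefon scores stood well clear of both other groups, which covered nearly the same range. The difference of 1.55 ± 0.301 (limma adjusted p = 0.0092) was the largest of all genes, but without triadimefon replicate 4 it was 1.43 and missed the threshold (0.062).

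Mt1 scored 0.44, 0.38, 0.39, 0.56 and 0.55 with triadimefon, -0.07, 0.15, -0.10, 0.08 and 0.03 with myclobutanil, and -0.11, -0.09, -0.12, 0.09 and 0.06 in controls. Again no triadimefon score overlapped the others. The difference was 0.447 ± 0.0857 (limma adjusted p = 0.0092, and 0.051 without triadimefon replicate 4). Both calls held with the arrays of 14 days alone (adjusted p = 0.0078 and 0.0035). Metallothionein copies are alike, so their probe sets may share signal: a further probe set listed with Mt1f, Ttr and Mt1 together was higher by 1.51 ± 0.322 (adjusted p = 0.023). These were the 2 of 19 measured genes in the glucocorticoid and metallothionein list that passed, and the list's median difference was 0.0505.

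In the circadian clock CLOCK and BMAL1 (or NPAS2) switch on the genes of their own repressors, among them Cry1, Nr1d1 and Nr1d2, and the NR1D proteins in turn silence Bmal1, Npas2 and Cry1. Of 21 measured clock genes, Nr1d1 and Nr1d2 were higher and Cry1 lower with triadimefon, and the other 18 did not pass; the list's median difference was -0.0129. The hour of the day at which livers were taken is not given in the sources used here. The letters CACGTG were also searched in the 250 bases before the RefSeq starts of Nr1d1 and Nr1d2. There were 0 matches before Nr1d2, 0 before start 1 of Nr1d1 and 1 before its start 2, against 5.59% of promoter windows with a match.

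Nr1d2 scored 1.08, 0.95, 0.50, 1.41 and 1.09 with triadimefon, 0.24, 0.13, 0.07, 0.12 and 0.36 with myclobutanil, and 0.12, -0.06, 0.05, 0.17 and 0.06 in controls. Every triadimefon score was above both other groups, replicate 3 being the lowest. The difference was 0.825 ± 0.104 (limma adjusted p = 7.1e-06), and the other probe sets of the gene also passed, at 0.727 and 0.296.

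Nr1d1 scored 0.32, 0.22, -0.08, 0.85 and 0.55 with triadimefon, -0.12, -0.22, -0.20, -0.19 and -0.03 with myclobutanil, and -0.17, -0.21, -0.21, -0.19 and -0.15 in controls. Triadimefon replicate 3 fell within the myclobutanil range and the other triadimefon scores were above it. The difference was 0.524 ± 0.0859 (limma adjusted p = 0.0012, and 0.11 with the arrays of 14 days alone).

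Cry1 scored 0.24, 0.26, 0.43, 0.06 and 0.17 with triadimefon, 0.74, 0.94, 0.86, 1.08 and 0.68 with myclobutanil, and 0.84, 0.82, 0.78, 0.60 and 0.78 in controls. All triadimefon scores lay below all others. The difference was -0.628 ± 0.0771 (limma adjusted p = 7.1e-06), and it passed with the arrays of 14 days alone (0.0035) and with the 10 compared arrays alone (0.021).

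In Npas2, Bmal1 and Dbp, picked from the clock genes that did not pass, triadimefon replicates 3 and 4 again marked the ends. Npas2 scored 0.103, 0.231, 0.668, -0.289 and 0.218 with triadimefon and between 0.424 and 0.651 with myclobutanil (difference -0.368, limma adjusted p = 0.1). Bmal1 scored 0.519, 0.458, 0.606, -0.0344 and 0.432 against 0.638 to 0.743 (-0.275, adjusted p = 0.16). Dbp, a clock output regulator, scored 0.457, 0.194, -0.0207, 1.41 and 0.319 with triadimefon and between -0.128 and 0.0731 with myclobutanil (0.48, adjusted p = 0.27). Replicate 3 was thus nearest to the myclobutanil arrays and replicate 4 farthest from them in these genes. Clock, Per1, Tef, Hlf and Wee1 differed by between -0.0129 and 0.0596, with intervals within -0.181 to 0.17. Further clock genes that did not pass were Per3 (0.269), Per2 (-0.129), Rora (-0.146), Nfil3 (-0.242) and Bhlhe40 (-0.256).

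**Figure D3:**
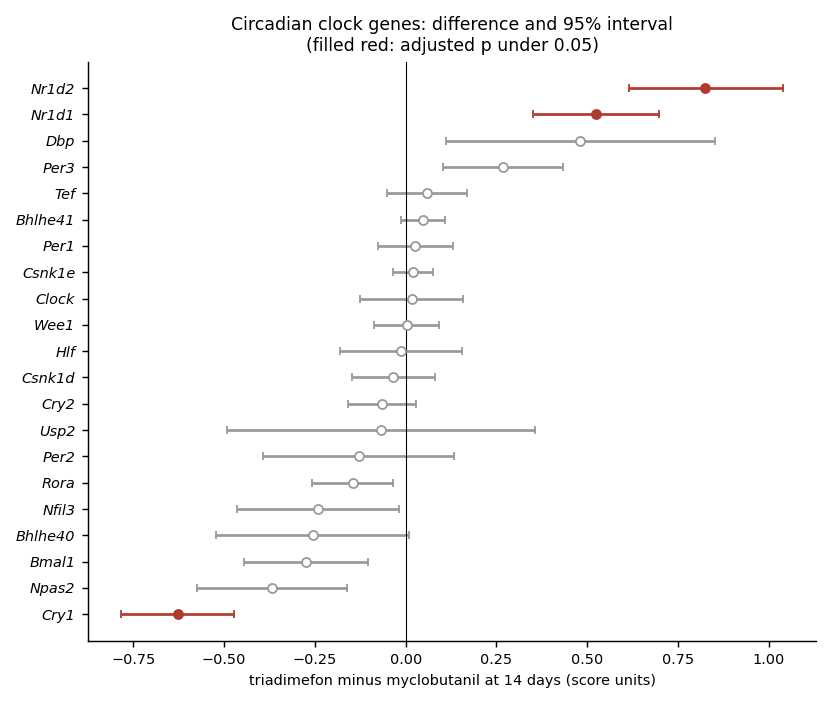
Difference between the compounds at 14 days (triadimefon minus myclobutanil, score units, x axis) for 21 clock genes (y axis), with 95% intervals of the limma fit; filled red points passed. Cry1 lies lowest at -0.628 and Nr1d2 highest at 0.825.

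Several genes of drug handling rose with both compounds and did not pass between them. Each compound is set against the same 5 control arrays, so the values stand side by side and are not independent. The probe set listed with Cyp2b1 and Cyp2b2, drug-metabolising cytochromes under CAR, scored 3.05, 3.86, 3.94, 3.77 and 4.03 with triadimefon, 3.03, 4.17, 3.77, 4.41 and 3.86 with myclobutanil and between 0.87 and 1.53 in controls. The treated groups overlapped fully, far above control. It rose by 2.52 with triadimefon (limma adjusted p = 7.9e-11) and by 2.63 with myclobutanil (7.6e-11), and the compounds differed by -0.116 (95% interval -0.541 to 0.309, adjusted p = 0.86), or 0.0639 after quantile normalization.

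Ugt2b1, a glucuronidating enzyme, rose by 1.5 with triadimefon and 1.66 with myclobutanil, and differed by -0.158 (-0.533 to 0.216), or 0.0162 after quantile normalization. Aldh1a1, an aldehyde dehydrogenase that makes retinoic acid, rose by 1.75 and 1.52 and differed by 0.229 (-0.18 to 0.637). The cytochrome Cyp3a18 rose by 0.849 and 0.85, with an interval of the difference from -0.383 to 0.382 and a difference of 0.157 after quantile normalization. Abcc3, which exports conjugates to blood, rose by 1.13 and 0.811; its difference of 0.32 (0.126 to 0.514) did not pass (adjusted p = 0.15). These intervals are wide enough to hold differences as large as the bounds given, so the missing calls do not show equal induction. Of 17 measured drug-metabolising P450 genes 0 passed between the compounds in limma (2 at an unadjusted p under 0.05), with differences from -0.312 to 0.342. There were also 0 calls among 20 glutathione transferases (2 at an unadjusted p under 0.05), 25 conjugating enzymes (3), 16 xenobiotic receptors and cofactors (2), 27 haem and iron genes (5), 20 bile acid genes (1) and 23 retinoid genes (3). Over all probe sets, 3849 of 31042 had an unadjusted p under 0.05. The receptors CAR (Nr1i3) and PXR (Nr1i2) differed by 0.242 (0.0375 to 0.446, adjusted p = 0.32) and 0.0534 (-0.111 to 0.217).

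Ces2c, a carboxylesterase that cleaves esters and amides of drugs, was the drug-handling gene that parted the compounds most. It scored 2.07, 2.44, 1.93, 2.17 and 2.22 with triadimefon, 1.55, 1.91, 1.75, 1.64 and 1.44 with myclobutanil, and 0.58, 0.71, 0.64, 0.71 and 0.69 in controls. Both compounds were above control on every array, and the triadimefon scores lay just above the myclobutanil scores. It rose by 1.5 with triadimefon and 0.992 with myclobutanil, and the difference was 0.509 ± 0.0953 (limma adjusted p = 0.0069, and 0.036 with the arrays of 14 days alone). It was the 1 of 28 measured esterase, monooxygenase and aldehyde or alcohol oxidation genes that passed.

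Abcb1a, a pump that expels drugs from cells, scored 0.34, 0.27, 0.35, 0.78 and 0.41 with triadimefon, 0.03, -0.11, 0.04, 0.05 and 0.19 with myclobutanil and between -0.24 and -0.06 in controls. The triadimefon scores lay above both other groups, with replicate 4 the highest, and myclobutanil replicate 2 lay within the control range. The difference was 0.39 ± 0.0918 (limma adjusted p = 0.043), a call that held in 3 of 10 repeats with 1 array left out (without triadimefon 2 or 3 or myclobutanil 5; adjusted p up to 0.23). A probe set shared by Abcb1a and Abcb1b was higher by 0.354 (adjusted p = 0.019), and a second probe set of Abcb1a, at 0.29, did not pass (0.13).

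Sdr42e1, of the short-chain dehydrogenase family, scored 0.84, 0.72, 0.57, 0.89 and 0.96 with triadimefon, 0.42, 0.23, 0.46, 0.24 and 0.29 with myclobutanil and between 0.33 and 0.49 in controls. Triadimefon alone stood out (difference 0.468 ± 0.0589, limma adjusted p = 7.1e-06). Sbspon, a secreted protein with thrombospondin and somatomedin B domains, scored 0.55, 0.44, 0.26, 0.44 and 0.20 with triadimefon, 0.07, 0.18, -0.03, 0.04 and -0.18 with myclobutanil and between -0.29 and -0.16 in controls. It rose with both compounds, by 0.623 and 0.258, and more with triadimefon (0.365 ± 0.0475, adjusted p = 1.3e-05, and 0.056 with the arrays of 14 days alone).

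**Figure D4:**
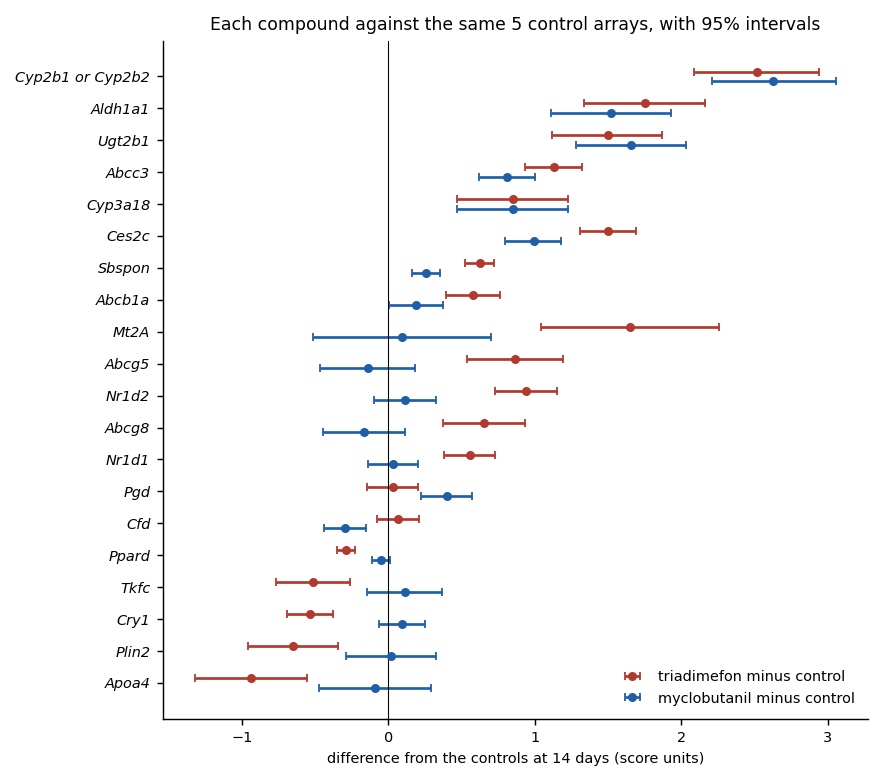
Difference of triadimefon (red) and myclobutanil (blue) from the same 5 control arrays at 14 days (score units, x axis) for 20 genes (y axis), with 95% intervals. The intervals lie over each other for Cyp2b1 or Cyp2b2 (2.52 and 2.63) and Cyp3a18 (0.849 and 0.85), and apart for Nr1d2 (0.939 and 0.114) and Cry1 (-0.534 and 0.094).

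Among genes of lipid droplets and lipoproteins, 1 of 39 measured was higher and 3 were lower with triadimefon, and the list's median was -0.141 as deposited and -0.0386 after quantile normalization. Apoa4, an apolipoprotein of triglyceride-rich particles, scored 2.23, 2.71, 3.12, 1.90 and 2.68 with triadimefon, 3.07, 3.60, 3.36, 3.71 and 3.14 with myclobutanil, and 3.47, 3.85, 3.39, 3.11 and 3.51 in controls. Triadimefon replicate 3 reached the low end of the myclobutanil range, and the other triadimefon scores lay below it. The difference was -0.848 ± 0.19 (limma adjusted p = 0.032), and after quantile normalization -0.696 (0.00055).

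Plin2, which coats lipid droplets, scored 2.20, 2.13, 2.36, 1.67 and 2.23 with triadimefon, 2.69, 2.86, 2.80, 2.89 and 2.67 with myclobutanil, and 2.75, 3.27, 2.75, 2.45 and 2.60 in controls. Every triadimefon score lay below every other score. The difference was -0.665 ± 0.152 (limma adjusted p = 0.036, and 0.0046 after quantile normalization), and a second, dimmer probe set passed at -0.236. With 1 array left out the call held in 5 of 10 repeats for Apoa4 (lost without triadimefon 1 or 4 or myclobutanil 2, 3 or 4) and in 2 of 10 for Plin2 (without triadimefon 3 or myclobutanil 5). Both lost it without triadimefon replicate 4 (adjusted p = 0.17 and 0.19) and with the arrays of 14 days alone (0.12 and 0.091).

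Mgll, a monoacylglycerol lipase, was lower with triadimefon (-0.242 ± 0.0525, limma adjusted p = 0.026): it rose by 0.211 with myclobutanil and was -0.0308 from control with triadimefon. Its other probe sets, at -0.29, -0.239 and -0.0839, did not pass (limma adjusted p = 0.069, 0.15 and 0.099). Lpl, the lipase that clears circulating triglyceride, was higher (0.349 ± 0.0776, adjusted p = 0.031), at 0.31 to 0.86 with triadimefon against 0.20 to 0.54, which overlap. Ppard, a nuclear receptor of fatty acids, scored 0.47, 0.40, 0.54, 0.36 and 0.40 with triadimefon, 0.67, 0.66, 0.67, 0.70 and 0.66 with myclobutanil, and 0.77, 0.76, 0.69, 0.71 and 0.69 in controls. The gap was small but no array crossed it (difference -0.239 ± 0.0301, adjusted p = 7.1e-06); a second, dimmer probe set of Ppard differed by -0.0506 and did not pass. Acot12, a thioesterase of acetyl-CoA, was the 1 of 48 fatty acid oxidation genes that passed (0.274 ± 0.0648, adjusted p = 0.044). With 1 array left out the call held in 4 of 10 repeats for Mgll (lost without triadimefon 1, 2, 4 or 5 or myclobutanil 2 or 4; adjusted p up to 0.12). It held in 3 of 10 for Lpl (without triadimefon 1 or 3 or myclobutanil 5; up to 0.13) and in 1 of 10 for Acot12 (without triadimefon 1; up to 0.17).

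Of 32 measured genes of fatty acid and triglyceride synthesis 0 passed in limma (13 at an unadjusted p under 0.05), with a median of -0.158 as deposited and -0.0987 after quantile normalization. The unadjusted share over all probe sets was 3849 of 31042. Fasn, the fatty acid synthase, scored 2.00, 1.68, 1.97, 1.76 and 2.03 with triadimefon, 2.20, 2.51, 2.73, 2.92 and 2.61 with myclobutanil, and 2.03, 2.86, 2.74, 1.71 and 1.89 in controls. The compounds did not overlap, but controls spanned both, and the difference of -0.706 (95% interval -1.12 to -0.296) did not pass (limma adjusted p = 0.13). Acaca, which makes malonyl-CoA, differed by -0.38 (-0.639 to -0.122, adjusted p = 0.21). Elovl5, a fatty acid elongase, differed by -0.474 (adjusted p = 0.08) and passed after quantile normalization (-0.322, 0.0019).

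Tkfc phosphorylates the dihydroxyacetone and glyceraldehyde of fructose breakdown. It scored 1.63, 1.62, 1.82, 1.34 and 1.78 with triadimefon, 2.07, 2.41, 2.21, 2.48 and 2.14 with myclobutanil, and 1.97, 2.54, 2.34, 1.71 and 2.18 in controls. The compounds did not overlap, and 1 control lay within the triadimefon range. The difference was -0.624 ± 0.125 (limma adjusted p = 0.013, up to 0.086 without triadimefon replicate 4 or myclobutanil replicate 4, which ended the call). A dimmer probe set of Tkfc differed by -0.117 and did not pass (limma adjusted p = 0.08). Tkfc was the 1 of 32 sugar metabolism genes that passed as deposited. After quantile normalization 5 were lower, Ldha (-0.275) among them, against 75 lower of all 14217 genes in that run. Pgd, of the pentose phosphate pathway, scored 1.32, 1.54, 1.70, 1.32 and 1.67 with triadimefon and 1.82, 1.72, 1.96, 2.18 and 1.71 with myclobutanil. The groups only just parted, and it was myclobutanil that left control (rose by 0.398, adjusted p = 0.014, against 0.0298 with triadimefon). Pgd was the 1 of 25 measured NRF2 target genes that passed between the compounds (-0.368 ± 0.0867, adjusted p = 0.043), a call that held in 4 of 10 repeats with 1 array left out (lost without triadimefon 1, 2 or 4 or myclobutanil 1, 3 or 4).

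Among genes of protein folding 1 passed as deposited. Fkbp4, a partner of HSP90 in steroid receptor complexes, scored 1.47, 1.46, 1.56, 1.21 and 1.55 with triadimefon, 1.65, 1.90, 1.84, 2.06 and 1.76 with myclobutanil and between 1.63 and 1.91 in controls. Triadimefon was below both other groups (difference -0.392 ± 0.0799, limma adjusted p = 0.015, up to 0.1 without triadimefon replicate 4 or myclobutanil replicate 4, which ended the call). It was the 1 of 26 heat shock genes that passed as deposited. As deposited 13 of the 26 had an unadjusted p under 0.05, against 3849 of 31042 probe sets. The list's median difference was -0.125, and -0.0928 after quantile normalization. After quantile normalization 7 of the 26 were lower with triadimefon, against 75 lower of all 14217 genes in that run. Beside Fkbp4 these were Hspd1, Hspe1, Hsp90ab1, Ahsa1, Cacybp and Cct3, which fold proteins in mitochondria or cytosol. For Cacybp the difference in that run was -0.264 (limma adjusted p = 0.016, and 0.064 as deposited).

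Psat1, of serine synthesis, and Asns, which makes asparagine, were the 2 that passed among 39 genes induced by endoplasmic reticulum stress or amino acid shortage. Psat1 scored 0.55, 0.16, 0.14, 0.29 and 0.32 with triadimefon and -0.12, 0.00, -0.13, -0.14 and 0.03 with myclobutanil (0.361 ± 0.0721, limma adjusted p = 0.012). That call was lost without triadimefon replicate 1 or myclobutanil replicate 4 (adjusted p up to 0.055) and with the arrays of 14 days alone (0.061). Asns was higher by 0.222 ± 0.0525 (adjusted p = 0.044), a call that held in 1 of 10 repeats with 1 array left out (without triadimefon 3; adjusted p up to 0.18). Cdkn1a, which halts the cell cycle, scored 0.39, 0.58, 0.81, 0.15 and 0.37 with triadimefon and 1.0, 0.87, 0.87, 1.0 and 0.71 with myclobutanil, so that replicate 3 overlapped. Its difference was -0.43 ± 0.101 (adjusted p = 0.043), which held in 2 of 10 repeats (without triadimefon 3 or myclobutanil 5; adjusted p up to 0.21). A dimmer probe set of Cdkn1a differed by -0.131 and did not pass (limma adjusted p = 0.28). Of 54 measured genes of DNA replication and mitosis 0 passed in limma (1 at an unadjusted p under 0.05), with differences from -0.0778 to 0.145, and the proliferation marker Mki67 differed by -0.0247 (-0.223 to 0.174).

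Hsd11b2, which inactivates corticosterone, scored 0.38, 0.45, 0.47, 0.34 and 0.41 with triadimefon, 0.70, 0.69, 0.58, 0.71 and 0.55 with myclobutanil and between 0.46 and 0.73 in controls. The compounds did not overlap (difference -0.235 ± 0.0389, limma adjusted p = 0.0013, and 0.076 with the arrays of 14 days alone), and it was the 1 of 24 steroid hormone genes that passed. Hsd17b2, which oxidises estradiol and testosterone, scored 2.26, 1.95, 1.69, 3.35 and 2.51 with triadimefon and 1.58, 1.72, 1.61, 1.48 and 1.24 with myclobutanil. Its difference of 0.825 ± 0.202 missed the threshold as deposited (adjusted p = 0.058) and passed after quantile normalization (0.901, 0.018); it was singled out after its values were seen.

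Cfd, a complement protease also made by fat, scored 0.45, 0.48, 0.46, 0.78 and 0.52 with triadimefon, 0.18, 0.16, 0.13, 0.19 and 0.20 with myclobutanil, and 0.76, 0.43, 0.36, 0.40 and 0.40 in controls. Here myclobutanil stood apart: it lay below control (fell by 0.298, limma adjusted p = 0.028), and triadimefon differed from control by 0.0685. The difference between the compounds was 0.366 ± 0.0706 (adjusted p = 0.0092, and 0.076 without triadimefon replicate 4). It was the 1 of 6 measured adipose genes that passed (4 at an unadjusted p under 0.05, Cfd included), and the list's median difference was -0.0489. The defining markers Adipoq and Plin1 had mean scores between -0.298 and -0.184 in the treated groups. On myclobutanil replicate 5 Adipoq scored 0.0428, against -0.345 to -0.211 on the other treated arrays of 14 days. The mean over the adipose list ran from -0.0403 to 0.105 per array with triadimefon, from -0.0679 to 0.0692 with myclobutanil and from -0.0908 to 0.0149 in controls; its part in the result was not tested.

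The remaining genes of the largest differences span other functions. Pla2g12a, a secreted phospholipase, was higher with triadimefon (0.428 ± 0.0986, limma adjusted p = 0.039). LOC102554026 was higher (0.333 ± 0.0606, adjusted p = 0.005). Irs3, an insulin receptor substrate, was lower (-0.358, adjusted p = 0.033), as were Stard5, a lipid transfer protein (-0.307, 0.011), and Xpc, which recognises DNA damage (-0.277, 0.026). Crybg2 (-0.287, adjusted p = 0.01) and Ttyh2 (-0.277, 0.022) were lower too. Of the other Stard5 probe sets, that at -0.209 passed (limma adjusted p = 0.041) and that at -0.229 did not (0.064). With 1 array left out the call of Pla2g12a held in 1 of 10 repeats (without triadimefon 3; adjusted p up to 0.18) and that of Irs3 in 3 (without triadimefon 1 or myclobutanil 1 or 2). It held in 4 for Xpc (lost without triadimefon 1, 2, 4 or 5 or myclobutanil 3 or 4) and in 6 for Ttyh2 (lost without triadimefon 4 or 5 or myclobutanil 2 or 4). Stard5 kept it in 8 (lost without triadimefon 4 or myclobutanil 4), Crybg2 in 8 (lost without triadimefon 4 or myclobutanil 2) and LOC102554026 in all 10. The 24 further genes that passed differed by 0.0886 to 0.242 (12 higher) and by -0.0804 to -0.222 (12 lower).

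Of 102 hepatocyte, Kupffer, lymphocyte, neutrophil, endothelial, bile duct, erythroid, pancreatic and muscle markers 0 passed in limma (19 at an unadjusted p under 0.05), and of 17 stellate and fibroblast markers 1 did, the smooth muscle actin Acta2 (-0.133 ± 0.0312, adjusted p = 0.043), a call that held in 2 of 10 repeats with 1 array left out (without triadimefon 2 or myclobutanil 3). Hepatocyte markers had a median of -0.249 as deposited and -0.00192 after quantile normalization. Myclobutanil replicate 5 carried muscle genes: Acta1 scored 1.90 there and between -0.526 and -0.381 on the other treated arrays of 14 days, and the mean over 9 muscle markers was 0.729 against at most 0.131. The other groups' ranges of that mean were 0.0029 to 0.0675 with triadimefon and 0.0127 to 0.108 in controls. Without that array Abcg5 differed by 1.09, Mt2A by 1.5, Nr1d2 by 0.869 and Cry1 by -0.673, and all 4 still passed. In whole liver, fewer cells of a type and less RNA per cell cannot be told apart.

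The differences were set against those at 6 h and 24 h, by testing the change of the compound difference itself. Between the compounds 44 genes (0.309%) passed at 6 h and 237 (1.67%) at 24 h. At 14 days against 6 h 109 of 14217 genes passed (0.767%), and against 24 h 43 (0.302%). The genes named below were picked by their difference at 14 days, which is part of the tested change. Their changes are therefore no independent support. Abcg5 differed by -0.0923 at 6 h, 0.24 at 24 h and 1.0 at 14 days, and the change from 6 h passed (1.10, limma adjusted p = 0.01). Mt2A differed by -0.632, 0.935 and 1.55 (change from 6 h 2.18, adjusted p = 0.0055); neither earlier difference passed. Cry1 differed by -0.0497, -0.34 and -0.628, and both later differences passed (adjusted p = 0.017 at 24 h). At 6 h these differences were nearest 0 or of the other sign, and none passed. At 24 h they had the sign of 14 days, but only that of Cry1 passed (limma adjusted p = 0.66 for Abcg5 and 0.13 for Mt2A). The change from 24 h to 14 days did not pass for Abcg5, Mt2A or Cry1 (limma adjusted p = 0.15, 0.58 and 0.29).

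For 4 named genes the difference changed between 24 h and 14 days. Ces2c differed by -0.118, -0.216 and 0.509 at the 3 times (change from 24 h 0.725, limma adjusted p = 0.0082). Sbspon differed by -0.0767, -0.0594 and 0.365 (0.424, 0.005), and Psat1 by -0.0227, -0.2 and 0.361 (0.561, 0.0065). Hsd11b2 differed by 0.0353, 0.00435 and -0.235 (-0.24, 0.047). For these the earlier differences did not pass. Among the named genes that passed at 14 days, Fkbp4 alone was also called in the other direction earlier: it was higher with triadimefon at 6 h (0.418, adjusted p = 0.0091) and lower at 14 days, a change of -0.809 (0.00012).

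**Figure D5:**
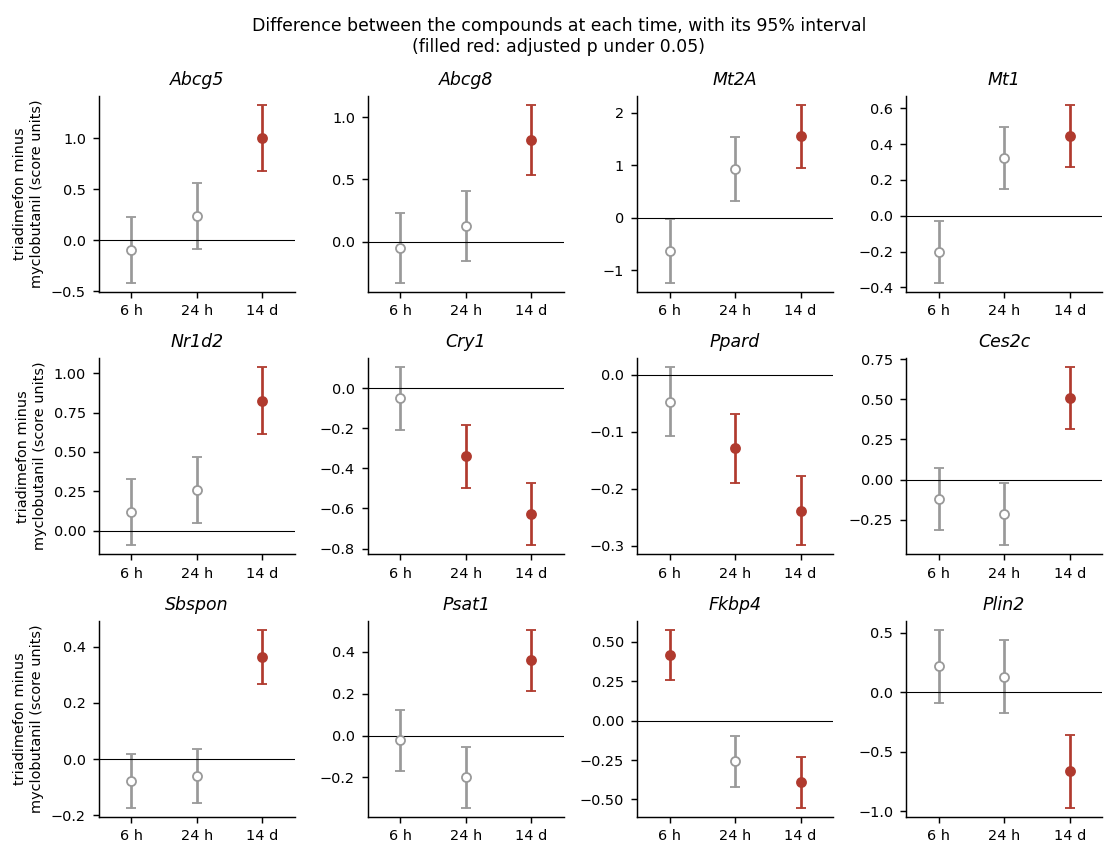
Difference between the compounds (triadimefon minus myclobutanil, score units, y axes) at 6 h, 24 h and 14 days (x axes) for 12 genes, with 95% intervals; filled red points passed at an adjusted p under 0.05. Cry1 goes from -0.0497 to -0.34 and -0.628, and Ces2c from -0.118 and -0.216 to 0.509.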

How the data were processed

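Liver RNA was measured on 45 arrays in 9 groups of 5, and the 10 arrays of triadimefon and myclobutanil at 14 days were compared, with 5 controls beside them. The authors deposited 1 processed score per probe set and array; its background correction, normalization and log base are not given in the sources used here, and array medians of 14 days lie between -0.0105 and 0.0332. Arrays have no read depth, and their number limits the precision. Of 31099 probe sets, 57 controls were left out; 20826 name 1 gene, 436 several and 9780 none, per the platform annotation (20758 matched RefSeq). The fit used limma 3.58.1 (R 4.3.3), with 1 mean per group over all arrays and default moderation; ± is the SE. On simulated data for this comparison (31042 probe sets, independent normal noise), 90.9% of differences of 0.25, 98.3% of 0.5 and 100% of 1 unit were recovered. Of 205 calls there, 12 were false. The changed probe sets were drawn at random, dim ones included, with no shift of brightness between arrays and no array standing apart. These shares therefore do not give the recovery in the real data, least of all for genes of high score.

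Named genes were the 15 highest and 15 lowest that passed, up to 5 passing members of each of 43 gene lists, and a panel of 46 entries (40 measured); the text gives part of the panel. Lists are described by counts and medians, with no test. The members and lists were chosen with earlier results of these data known, so they are not independent evidence. Replicate numbers were not taken to pair the groups: same-numbered triadimefon and myclobutanil arrays correlated between -0.226 and 0.206, with 2 of 5 pairs over 0.1. For triadimefon and control the range was -0.095 to 0.344, with 3 of 5 over 0.1. For myclobutanil and control it was -0.374 to 0.141, with 1 of 5. Such weak correlations over few pairs cannot settle whether samples were paired. Sequences come from RefSeq promoters of GRCr8. Alternatives included quantile normalization, a common median, other fits, file-name ending and leaving out arrays.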

Additional observations from a re-analysis of the deposited data

Results flagged for a closer look

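Among 213 gene and group combinations of 5 arrays each, 12 held an array standing apart from the other 4 (a gap over 0.71 of the range, which chance gives in about 1 of 20 groups). The count of 12 is close to that share, so the arrays below are listed as a description only. Triadimefon replicate 4 stood apart for Abcb1a (0.78, others 0.27 to 0.41), Cfd (0.78, others 0.45 to 0.52) and Fkbp4 (1.21, others 1.46 to 1.56). Triadimefon replicate 1 was low for Cyp2b1 or Cyp2b2 (3.05, others 3.77 to 4.03). Myclobutanil replicate 4 was high for Cyp1a1 (0.44, others at most 0.01), Gclc (2.05, others at most 1.83) and Acaca (2.24, others at most 1.89), and replicate 2 for Aldh1a1 (3.43, others at most 2.75). In controls, replicate 1 was high for Cfd (0.76) and low for Psat1 (-0.17), replicate 2 was high for Por (1.43) and replicate 4 was low for Cry1 (0.6).

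The difference between the compounds was itself different between times for 24 of 142 tests on named genes (limma), 4 against 24 h and 20 against 6 h. Over all 14217 genes 0.302% passed against 24 h and 0.767% against 6 h. Of the 71 named genes, 33 passed between the compounds at 14 days. That difference is part of the tested change, so the choice of genes raises this count in advance. Against 24 h the genes were Ces2c (a change of 0.725), Sbspon (0.424), Psat1 (0.561) and Hsd11b2 (-0.24). Against 6 h the change was upward for Mt2A (2.18), Abcg5 (1.1), Abcg8 (0.864), Nr1d2 (0.709), Abcb1a (0.686), Mt1 (0.648), Ces2c (0.627), Pla2g12a (0.599), Sdr42e1 (0.485), Nr1d1 (0.483), Sbspon (0.441) and Acot12 (0.44). It was downward for Fasn (-1.2), Plin2 (-0.883), Fkbp4 (-0.809), Cry1 (-0.578), Stard5 (-0.53), Hsd11b2 (-0.271), Acta2 (-0.235) and Ppard (-0.192). Fasn was not among the genes that passed between the compounds at 14 days.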

How the results depend on the processing

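None of the 33 named genes that passed turned its direction under any alternative run; among those that did not pass, Cyp3a2 went from -0.187 to 0.0446 after quantile normalization, and Cyp51, Ugt2b1, Cyp3a18, Nqo1, Cpt1a and the probe set of Cyp2b1 and Cyp2b2 also turned. Of the 33 named genes that passed, 33 still passed after quantile normalization, 29 with a replicate block (all but Psat1, Pgd, Asns and Acta2), 17 among arrays of file-name ending 11, 10 with the arrays of 14 days alone and 6 with the compared arrays alone. At 14 days ending 11 leaves out myclobutanil replicate 3. At 6 h it leaves out control replicates 2 and 3, myclobutanil replicates 3, 4 and 5 and triadimefon replicates 1, 2 and 3. Between the compounds at 14 days, 103 probe sets and 57 genes passed; quantile normalization gave 292 and 160, ending 11 gave 35 and 23, the compared arrays alone 11 and 7, the arrays of 14 days alone 24 and 14, an adjusted p under 0.01 27 and 17, and a difference of at least 0.5 units 12 and 10. With the replicate block the counts were 78 and 46, though the check could not settle whether the numbers pair samples. Leaving out 1 array gave 23 to 118 probe sets and 12 to 59 genes (probe sets 23 without triadimefon 4, 40 without myclobutanil 4, 54 without myclobutanil 2, 63 without triadimefon 5, and 64 without triadimefon 2 or myclobutanil 3). For triadimefon against control (2076) the counts were 600 at 0.01 and 61 at 0.5 units, and 1014 (without control 2) to 2185 with 1 array left out. For myclobutanil against control (246) they were 110 with the compared arrays alone, 76 at 0.01 and 22 at 0.5 units, and 73 (without myclobutanil 4) to 408 (without myclobutanil 5). The change from 24 h (60) gave 277 after quantile normalization, 187 with array weights, 38 with the replicate block, 25 at ending 11, 33 with the compared groups alone, 14 at 0.01, 12 at 0.5 units, and 18 (without myclobutanil 5 of 24 h) to 105 (without triadimefon 1 of 24 h). The change from 6 h (187) gave 619, 303 with array weights, 23 at ending 11 (with fewer arrays left in each 6 h group), 60 at 0.01, 48 at 0.5 units, and 107 (without triadimefon 4) to 256. With the arrays of 14 days alone, triadimefon against control gave 1970 probe sets and myclobutanil against control 248. With the compared arrays alone these were 1939 and 110. Fewer arrays in a fit leave fewer degrees of freedom for the spread, and what moved each count was not tested.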

Other observations

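Probe sets without a single gene stay outside the gene counts. Among the 103 that passed, 15 have no listed gene (4 higher and 11 lower with triadimefon, from -0.47 to 0.307) and 3 list several. Of these 3, the one listed with Cycs-ps9, Cycsl1 and Cycs, the latter cytochrome c, was lower by 0.377 units (-0.377 ± 0.0869, limma adjusted p = 0.039). Ubd, a ubiquitin-like protein raised by inflammation, had the lowest difference of all genes (-1.15 ± 0.347) and did not pass (adjusted p = 0.15). It was chosen after its values were seen, as was Igfbp1, an insulin-like growth factor binding protein (0.664 ± 0.306, adjusted p = 0.37).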
